A study of Bos taurus with 21 samples.

Results

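Iron handling genes were examined in the somatic cells shed into the milk of 21 Holstein cows. The rows of 6 symbols were taken from the table of each cow: FTH1, FTL, HMOX1, TFRC, SLC40A1 and SLC11A1. All 6 were present, among 12333 genes counted in 1 or more of the cows. The labels put 9 cows in a high (HY) and 12 in a low (LY) milk yielding group. The cows were of parity 2 to 4 and gave 1 library each, at 41 to 268 days of lactation in HY and 52 to 270 days in LY. The labels give each cow milk yield, fat, protein and solid values without a unit, some of them negative, and the study describes the milk yield value as a breeding value. Milk somatic cells are a mixture of leukocytes and shed mammary epithelium, no cell type was sorted, and fewer cells of a type and less RNA per cell cannot be told apart in these libraries.

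Macrophages take up old red cells and debris and recycle their iron. Transferrin receptor (TFRC) brings transferrin-bound iron into the cell. Heme oxygenase 1 (HMOX1) opens heme and frees its iron, ferritin heavy (FTH1) and light (FTL) chains form the shell in which iron is stored, and ferroportin (SLC40A1) exports it. SLC11A1, also called NRAMP1, moves divalent metals out of the phagosome of macrophages and neutrophils and is known for its part in resistance to intracellular bacteria. Ferritin and TFRC are also controlled at the level of their mRNA translation and stability by iron regulatory proteins, which RNA counts show only in part.

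The deposited tables placed between 7878557 and 28541904 reads of a cow on genes. Values below are counts scaled to library size (CPM) with trimmed mean of M-values (TMM) factors of 0.46 to 1.48. The 10 highest genes of a library held 9.97% to 62.9% of its counts, and the 2 libraries with the largest share were HY cows 3262 and 3280, at 62.9% and 59.8%. Of 19 macrophage markers listed, 13 were measured, each with 10 or more counts in each library, and their summed level was 2775 to 7768 CPM in HY and 2761 to 8111 CPM in LY. The defining macrophage genes MRC1, MARCO, SIGLEC1, ITGAX and ADGRE1 were not analysed here. All 7 milk protein genes were measured in every cow, while the summed erythroid markers reached at most 1.38 CPM.

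The storage gene FTH1 was counted in every cow, with 19080 to 209628 reads. In HY it was lowest at 3317 CPM (cow 3014), had a median of 4356 and was highest at 10268 (cow 2814). In LY the lowest value was 2073 CPM (cow 2864), the median 4011 and the highest 10195 (cow 3161). The groups overlapped over most of their range, and the highest cow of all held 4.95 times the value of the lowest.

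FTL, the partner chain of the same ferritin shell, behaved unlike FTH1. It had 3 or fewer counts in 9 cows, 3 HY and 6 LY, and 7 of these, 3 HY and 4 LY, had none. The next lowest cow had 33 counts and the highest, HY cow 2814, had 1531. In CPM, HY ran from 0 through a median of 20.3 to 74.99, and LY from 0 through 2.00 to 66.7. In the cows without a count, 3 counts would be 0.118 to 0.438 CPM, so that levels under this could not be seen. The same 9 cows had 20907 to 171304 FTH1 counts, against 19080 to 209628 in the other 12. Even in the cow with the highest ratio, LY cow 3198, the FTL count was 1.24% of the FTH1 count.

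The cows with few and many FTL counts overlapped in lactation period, reads on genes and mapping rate set. Parity, milk traits and cell type markers were not compared between these sets of cows. Lactation period was 52 to 270 days in the 9 cows and 41 to 265 in the others, and reads on genes were 9157772 to 28541904 and 7878557 to 25550423. Among the 9 cows, 1 belonged to the 5 cows of higher mapping rate in the study. A pattern of at least 500 counts in at least 6 cows and 3 or fewer in at least 9 was found for 2 genes, FTL and PRSS2, and this count was made after the values were seen. Ferritin chains have many processed copies in mammalian genomes, and how the counting divided reads between such copies was not tested. The level of FTL is therefore uncertain, and comparisons of FTL below hold for the counted reads only.

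**Figure D1:**
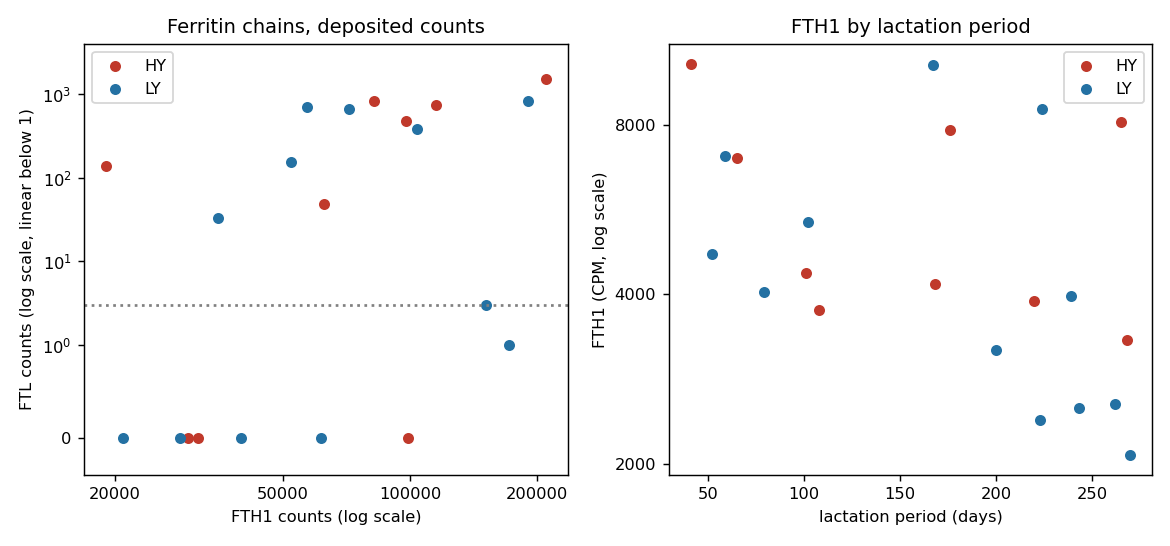
Left, FTL counts against FTH1 counts of each cow, both on log axes (FTL linear below 1), with a dotted line at 3 FTL counts. The 9 cows on or below the line have 20907 to 171304 FTH1 counts. Right, FTH1 in CPM on a log axis against lactation period in days. HY cows are red and LY cows blue.

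HMOX1 ran in HY from 74.4 CPM (cow 3280) through a median of 228 to 550 (cow 2814). In LY it ran from 88.5 CPM (cow 3264) through 165 to 431 (cow 3198). The HY cows thus held both the lowest and the highest value, with a range of 7.39 times over all 21 cows.

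TFRC varied most among the members that were counted in every cow, by 26.6 times. Its HY values ran from 8.68 CPM (cow 3262) through a median of 85.3 to 231 (cow 2920), and its LY values from 13.6 (cow 7598) through 62.0 to 170 (cow 3135). SLC40A1 ran from 40.3 CPM (cow 3057) through 78.6 to 132 (cow 3014) in HY and from 31.3 (cow 7643) through 90.8 to 152 (cow 3369) in LY. SLC11A1 ran from 137 CPM (cow 3280) through 343 to 620 (cow 2814) in HY and from 186 (cow 3264) through 342 to 640 (cow 7643) in LY. HY cow 2814 was the highest HY cow for FTH1, FTL, HMOX1 and SLC11A1. The 2 groups overlapped for each of the 6 genes.

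**Figure D2:**
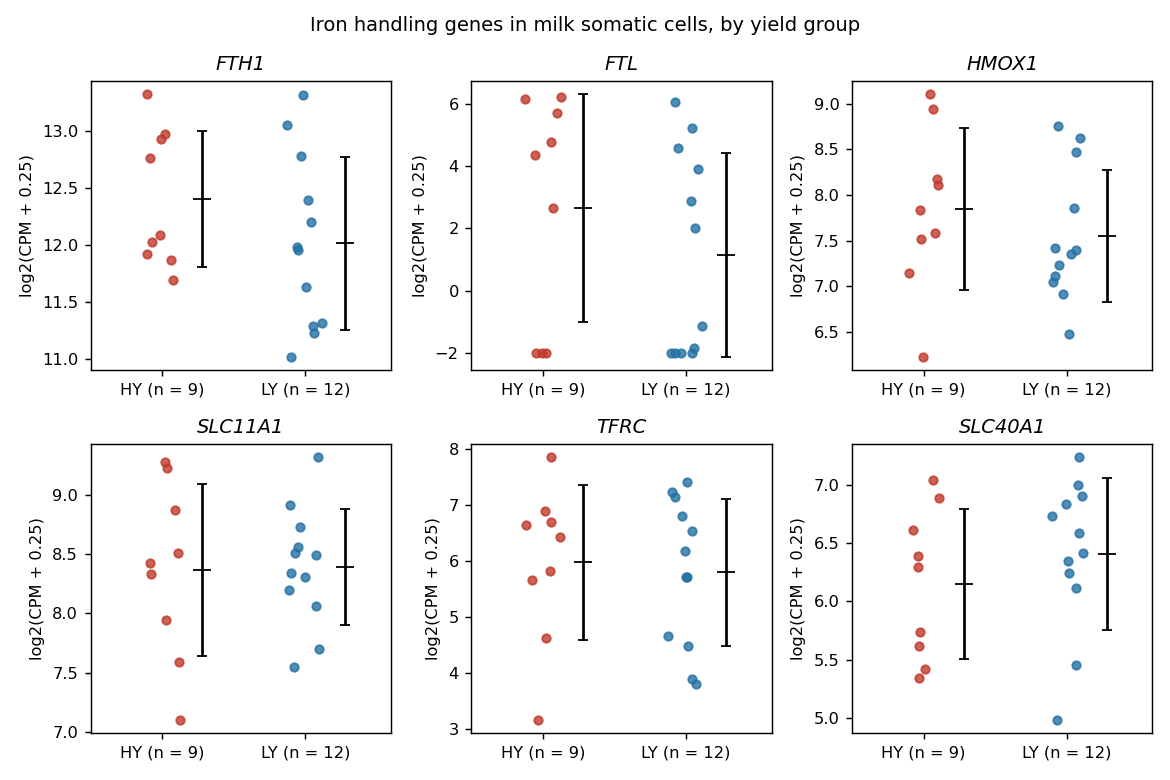
Expression of the 6 iron handling genes as log2(CPM + 0.25) in 9 HY and 12 LY cows, 1 point per cow, with the mean and SD of each group as bars. The groups overlap in every panel, and FTL splits into cows near the floor and cows above it in both groups.

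The study asked which genes follow milk yield, and HY and LY were compared first. No difference between the groups was detected for any iron handling gene. Mean FTH1 was 5850 ± 2485 CPM in HY (SD, n = 9) and 4718 ± 2622 in LY (SD, n = 12), a log2 difference of 0.31 with a standard error of 0.34. HMOX1 was 269 ± 158 CPM in HY and 212 ± 116 in LY (log2 difference 0.35, SE 0.33). SLC11A1 was 366 ± 169 CPM in HY and 354 ± 123 in LY (0.05, SE 0.26), TFRC 86.1 ± 65.6 and 76.0 ± 55.6 (0.18, SE 0.48), and SLC40A1 77.3 ± 33.8 and 91.9 ± 34.8 (-0.25, SE 0.27). FTL, with 28 ± 30.8 CPM in HY and 12.8 ± 20.7 in LY, had the largest difference, 1.13, and an SE of 1.18.

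The adjusted p of each member was 0.999 in the quasi-likelihood test of edgeR. None of the 12333 genes (0%) passed an adjusted p of 0.1 there, 580 (4.7%) had an unadjusted p under 0.05, and DESeq2 called 1 gene. None of the 6 members was among those under 0.05. The exact permutation test over 293930 choices of HY cows gave two-sided p from 0.219 for FTH1 to 0.922 for SLC11A1. The differences of TFRC and SLC11A1 turned their sign when single cows were left out.

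The milk traits of the single cows were then set against expression by simple linear regression of log2(CPM + 0.25) on the trait. The study took milk yield as the response and expression as the explanatory variable, and with a single variable both directions give the same p. No relation of a member with milk yield, fat, protein or solid values was detected. For milk yield the slope per 100 units was 0.04 for FTH1 (SE 0.06), 0.39 for FTL (SE 0.29), 0.06 for HMOX1 (SE 0.07), 0.08 for TFRC (SE 0.11), -0.06 for SLC40A1 (SE 0.05) and 0.02 for SLC11A1 (SE 0.05). Among all genes, 2.49% had p under 0.05 with milk yield, 2.3% with milk fat, 2.3% with milk protein and 1.65% with milk solid values. None of the 12333 genes passed the adjusted threshold in these regressions, while slopes fitted by edgeR gave 22 genes for milk yield, 4 for milk solid and 0 for milk fat and milk protein values, with no member among them.

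Of these 24 relations, FTL against milk fat value had the lowest p (r = 0.424 with p = 0.0567 and Spearman's rho = 0.385 with p = 0.0871 by permutation, and 1 after adjustment over all genes). Its r was 0.342 without the 2 cows of most distant fat value, 0.346 within HY and 0.459 within LY. SLC40A1 had a negative r with all 4 traits, from -0.16 for milk solid to -0.259 for milk yield values. Without the 2 cows of most distant trait value it was -0.0634 for milk yield, -0.511 for milk fat, -0.362 for milk protein and 0.111 for milk solid values, and without LY cow 3369 the milk yield slope was -0.0372 per 100 units. Within the 16 cows of lower mapping rate these were -0.594 for milk yield (p = 0.0152 by the regression), -0.587 for milk fat (p = 0.0169) and -0.58 for milk protein values (p = 0.0184), with adjusted p of at least 0.978. Within HY and LY, the r of SLC40A1 with milk yield was -0.444 and -0.0447. A difference in slope between HY and LY was tested for the members with traits, lactation period and macrophage score, and 0 of 36 tests had p under 0.05.

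Lactation period, the day of lactation at sampling, had an unadjusted p under 0.05 with 20.3% of all genes. None of them passed the adjusted threshold in the regression, while 767 passed with slopes fitted by edgeR. FTH1 was the single member under 0.05. It was 10268 CPM in the cow sampled earliest (2814, day 41) and 2073 CPM in the cow sampled last (2864, day 270), and the intermediate cows were scattered, with 8082 CPM in cow 3057 at day 265. The slope was -0.40 log2 units per 100 days (SE 0.18), with r = -0.461 (p = 0.0367 by permutation) and rho = -0.527 (p = 0.0154). After adjustment over all genes p was 0.212, so that the relation did not pass the correction, and the edgeR slope of -0.34 had p = 0.116.

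The FTH1 relation was negative in both groups, with r = -0.344 in HY and -0.515 in LY, and r was -0.519 in the 16 cows of lower mapping rate and -0.396 without the 2 cows of most distant lactation period. The slope was -0.50 with the milk protein gene score as covariate (p = 0.000977, adjusted p = 0.133) and -0.36 with the macrophage score (p = 0.0381, adjusted p = 0.166), while with parity and group as covariates it was -0.37 (p = 0.058, adjusted p = 0.289). Fitted within each group, the slope had an adjusted p of 0.775 in HY and 0.584 in LY. Slopes of the other members per 100 days were 0.42 for TFRC (SE 0.36), -0.16 for HMOX1 (SE 0.22), 0.09 for SLC11A1 (SE 0.16), 0.02 for SLC40A1 (SE 0.18) and -0.55 for FTL (SE 0.96), with p of at least 0.254. Macrophage score itself had r = -0.11 with lactation period (permutation p = 0.632). Lactation period and milk yield value had r = 0.268 over all cows (permutation p = 0.24), but 0.664 within HY and 0.788 within LY. Milk yield was not a covariate in these fits. Within a group, relations with lactation period and with milk yield are therefore hard to tell apart.

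Macrophage genes were summarised as a score, the mean log2(CPM + 0.25) of the 13 markers, none of which is a member. The markers did not follow their own score equally. Their r with it was 0.152 for CD86, 0.320 for GPNMB, 0.459 for MSR1 and 0.547 for CD68. The other markers had r from 0.679 for CD14 to 0.883 for C1QC. HMOX1 and SLC11A1 rose with the score. HMOX1 was 74.4 CPM in the cow with the lowest score (HY cow 3280) and 550, 493.1 and 431 CPM in the 3 cows with the highest scores (2814, 3057 and 3198). It rose by 1.04 log2 units per unit of score (SE 0.20), with r = 0.765 (permutation p = 9e-05), rho = 0.732 (permutation p = 0.00033) and an adjusted p of 0.00383. SLC11A1 rose by 0.57 per unit (SE 0.19), with r = 0.559 (permutation p = 0.00859), rho = 0.521 (permutation p = 0.0159) and an adjusted p of 0.066. These are 2 of the 6 members, where 17.4% of all genes passed and 10.2% passed with a positive slope, 7.15% with a negative one.

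The remaining members did not pass. FTH1 had a slope of 0.57 (SE 0.25, r = 0.468, adjusted p = 0.148) and TFRC one of 1.0 (SE 0.46, r = 0.443, adjusted p = 0.18). FTL had 2.21 (SE 1.26, r = 0.373, permutation p = 0.0951, rho = 0.479, permutation p = 0.0294, adjusted p = 0.293). The exporter SLC40A1 was the single member with a negative slope, -0.48 (SE 0.23, r = -0.429, adjusted p = 0.2). Over all genes tested the median slope was 0.03, and over the 6 members it was 0.78.

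**Figure D3:**
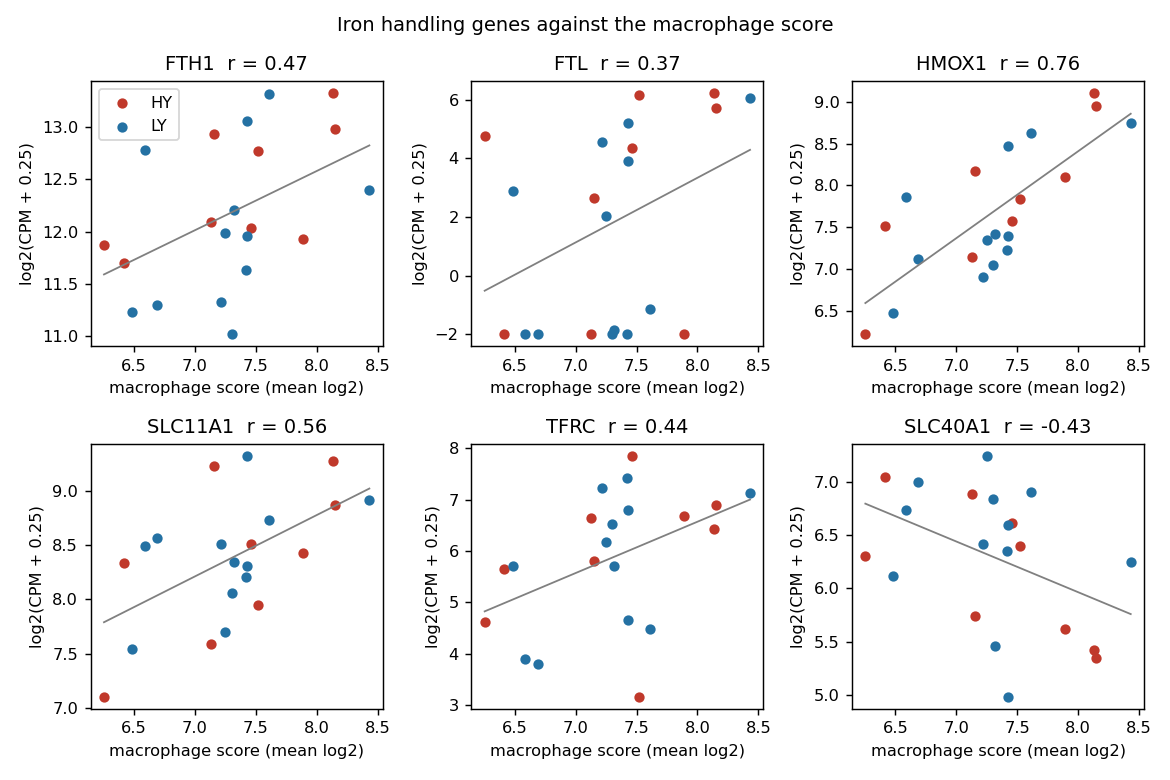
Each iron handling gene as log2(CPM + 0.25) against the macrophage score, the mean log2 value of 13 macrophage markers, with 1 point per cow and the least squares line. HMOX1 has the highest r (r = 0.76), and SLC40A1 (r = -0.43) slopes downward.

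The HMOX1 relation held within HY (r = 0.856) and within LY (r = 0.663), in the 16 cows of lower mapping rate (r = 0.806) and without the 2 cows of most distant score (r = 0.675), and the gene passed in all 21 fits that left out 1 cow (adjusted p at most 0.0185). With the cows of 1 group alone, its adjusted p was 0.168 in HY and 0.294 in LY. The SLC11A1 call was lost without cow 2814 (adjusted p = 0.154), 3057 (0.112), 3198 (0.103), 3264 (0.115) or 3280 (0.214), and with size factors in place of TMM (0.112). It was also lost in the 16 cows (0.111) and without HY cows 3262 and 3280 (slope 0.45, adjusted p = 0.181). In the opposite direction, FTH1 passed without cow 2893 (adjusted p = 0.0877) and TFRC without cow 3262 (0.0745). With a score of CSF1R, CD68 and MSR1 alone, both HMOX1 (1.20, adjusted p = 0.00497) and SLC11A1 (0.74, adjusted p = 0.032) passed.

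Milk protein mRNA moved with the macrophage score. The score of the 7 milk protein genes (caseins, alpha-lactalbumin, beta-lactoglobulin and GLYCAM1) had r = -0.599 with it (permutation p = 0.00415), and rho was -0.568 (permutation p = 0.00784). This r was -0.587 in HY, -0.628 in LY and -0.548 when the 2 cows of most distant macrophage score were left out. With this score as covariate, HMOX1 had a slope of 0.70 on the macrophage score (p = 0.00532, adjusted p = 0.101), that of SLC11A1 was 0.06 (p = 0.693) and that of SLC40A1 was -0.05 (p = 0.834).

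The members were therefore also regressed on the milk protein gene score, on which 27.8% of all genes passed an adjusted p of 0.1, 12.5% with positive and 15.3% with negative slopes. SLC11A1 fell by 0.16 log2 units per unit of the score (SE 0.02, r = -0.871, permutation p = 1e-05, the smallest these permutations can give, rho = -0.848, adjusted p = 1.4e-05). It ran from 600, 620 and 640 CPM in the 3 cows with the lowest milk protein gene score (3235, 2814 and 7643) to 247 and 137 CPM in the cows with the highest (3262 and 3280). HMOX1 fell by 0.18 (SE 0.04, r = -0.728, permutation p = 0.00015, rho = -0.643, adjusted p = 0.00271). FTH1 fell by 0.12 (SE 0.04, r = -0.543, permutation p = 0.0119, rho = -0.466, adjusted p = 0.0517).

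SLC40A1 was the single member that rose with the milk protein genes, by 0.14 per unit (SE 0.04, r = 0.665, permutation p = 0.00116, rho = 0.564, adjusted p = 0.00917). It was 53.0, 42.5 and 31.3 CPM in the 3 cows with the lowest score and 84.0 and 78.6 CPM in the 2 with the highest. TFRC (-0.15, SE 0.09, adjusted p = 0.249) and FTL (-0.42, SE 0.23, adjusted p = 0.223) did not pass. The r of SLC11A1 was -0.828, of HMOX1 -0.685, of SLC40A1 0.601 and of FTH1 -0.389 without the 2 cows of most distant score. Within HY and LY the r of SLC11A1 was -0.94 and -0.782, and that of SLC40A1 was 0.716 and 0.646, and SLC11A1 was the single member that passed in each group alone (adjusted p = 0.0103 in HY and 0.0438 in LY). FTH1 lost its call without cow 2814 (adjusted p = 0.138) or 7643 (0.109) and in the 16 cows of lower mapping rate (0.107). FTL gained one without cow 3262 (0.0674) and without HY cows 3262 and 3280 (slope -0.77, adjusted p = 0.0166). With the macrophage score as covariate, SLC11A1 (-0.16, adjusted p = 0.000757), SLC40A1 (0.13, adjusted p = 0.0602) and HMOX1 (-0.11, adjusted p = 0.0891) still passed, and FTH1 did not (adjusted p = 0.287).

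The score of 10 mammary epithelium genes (keratins, claudins, EPCAM, CDH1 and ELF5), closely tied to that of the milk proteins (r = 0.852, permutation p = 1e-05), was followed by 27.9% of all genes, 12.9% upward and 15% downward. TFRC fell with it by 0.58 per unit (SE 0.16, r = -0.638, permutation p = 0.00176, rho = -0.651, adjusted p = 0.0159). SLC11A1 (-0.27, adjusted p = 0.0104) and HMOX1 (-0.28, adjusted p = 0.0733) also fell, and SLC40A1 rose (0.25, adjusted p = 0.0487). The TFRC r was -0.691 in HY, -0.636 in LY and -0.613 when the 2 cows of most distant score were left out. Its call was lost without HY cows 3262 and 3280 (slope -0.47, adjusted p = 0.132), cow 3262 having the lowest TFRC value of all. The HMOX1 call was lost without cow 2814 (0.206) or 3280 (0.204) and the SLC40A1 call without cow 2814 (0.101). With the macrophage score as covariate, the slope of HMOX1 was -0.0548 (adjusted p = 0.762), and the calls of SLC11A1 (-0.21, adjusted p = 0.11) and SLC40A1 (0.20, adjusted p = 0.21) ended too, while TFRC passed (-0.52, adjusted p = 0.0946). Within HY and LY, r was -0.745 and -0.0829 for HMOX1, -0.874 and -0.296 for SLC11A1, and 0.640 and 0.457 for SLC40A1, and SLC11A1 in HY was the single call in either group alone (adjusted p = 0.0449). Without HY cows 3262 and 3280 the HMOX1 call was lost as well (adjusted p = 0.180).

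Among leukocyte scores, the neutrophil score was followed by 11.4% of all genes, 7.52% upward, and by SLC11A1 (slope 0.43, SE 0.15, r = 0.561, permutation p = 0.00794, rho = 0.664, permutation p = 0.00142, adjusted p = 0.0809). This call was lost without cow 2864, 3075, 3135, 3161, 3235, 3262, 3369 or 7643 (adjusted p from 0.101 to 0.143) or cow 3280 (0.332), and without HY cows 3262 and 3280 (slope 0.30, adjusted p = 0.362). With the macrophage score as covariate, the slope was 0.49 and the adjusted p 0.00368. Macrophage and neutrophil scores were not detectably related over all cows (r = -0.112, permutation p = 0.633). This r depended on single cows. It was -0.456 without cows 3198 and 3280, the 2 cows of most distant macrophage score, and no permutation test was made there. Within HY and LY it was -0.0455 and -0.210. The macrophage score had r = -0.584 with the mammary epithelium score (permutation p = 0.0053) and 0.554 with the proliferation score (permutation p = 0.00871). With the T cell, B cell and erythroid scores its r was 0.0493, 0.384 and -0.115 (permutation p of at least 0.0864). No member passed with the T cell, B cell, erythroid or proliferation scores, which 13.1%, 5.2%, 0% and 18.4% of all genes followed. Of these relations, TFRC with the proliferation score had r = 0.472 (permutation p = 0.0304, rho = 0.536, permutation p = 0.0134, adjusted p = 0.133) and SLC11A1 with the B cell score had r = 0.473 (permutation p = 0.0298, adjusted p = 0.176), which was 0.0485 when the 2 cows of most distant B cell score were left out.

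**Figure D4:**
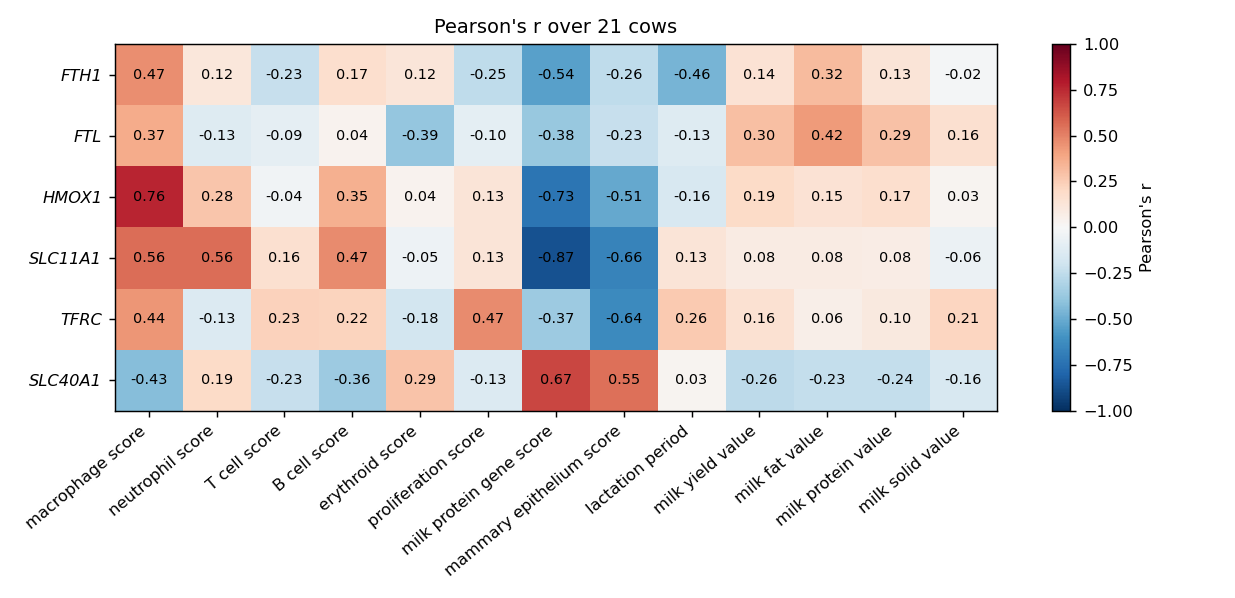
Pearson's r over 21 cows between each iron handling gene (rows) and the cell type scores, lactation period and milk trait values (columns). SLC11A1 and HMOX1 have the lowest values in the milk protein gene column (-0.87 and -0.73), SLC40A1 has the opposite sign there (0.67), and the trait columns stay between -0.26 and 0.42.

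The members were also compared with each other in 15 pairs over the 21 cows. Of these, FTH1 and HMOX1 had the highest r (r = 0.820, permutation p = 4e-05, rho = 0.855, permutation p = 2e-05). HMOX1 stood at rank 32 among 7145 genes ordered by their rho with FTH1, and FTH1 at rank 17 for HMOX1. HMOX1 and SLC11A1 had r = 0.816 (permutation p = 3e-05, rho = 0.753, permutation p = 0.00018), and FTH1 and SLC11A1 had r = 0.581 (permutation p = 0.00587, rho = 0.6, permutation p = 0.00475). These were 0.759, 0.784 and 0.502 when the 2 most distant cows were left out. Within HY and LY, r was 0.771 and 0.876 for FTH1 and HMOX1, and 0.888 and 0.774 for HMOX1 and SLC11A1.

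SLC40A1 had a negative r with every other member, from -0.0977 with TFRC to -0.501 with SLC11A1 (permutation p = 0.0207, rho = -0.399, permutation p = 0.0741). The values with HMOX1 (r = -0.465, permutation p = 0.0348, rho = -0.413, permutation p = 0.0644) and FTH1 (r = -0.453, permutation p = 0.0402, rho = -0.388, permutation p = 0.0837) had p under 0.05 for r and not for rho. With FTL, rho had p under 0.05 and r did not (r = -0.416, permutation p = 0.0607, rho = -0.532, permutation p = 0.0141). Without the 2 most distant cows the r of SLC40A1 was -0.346 with SLC11A1, -0.273 with HMOX1, -0.531 with FTH1, -0.359 with FTL and 0.0207 with TFRC. TFRC was not detectably related to any other member, with r from -0.265 with FTH1 to 0.103 with FTL. FTL and FTH1, the chains of one protein shell, had r = 0.359 (permutation p = 0.111) and rho = 0.47 (permutation p = 0.0335).

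The genes most like each member were named by Spearman's rho over the 21 cows, among genes that reached 10 counts in each library. For FTH1 they were ATP6V0D1 (rho = 0.952), a subunit of the proton pump of lysosomes, CTSZ (0.926), a lysosomal protease, VAT1 (0.922), SCAMP2 (0.921) and ETHE1 (0.919), a mitochondrial sulfur dioxygenase. For HMOX1 they were the glycolytic enzymes TPI1 (0.919), ENO1 (0.895) and GPI (0.895), with the galectin LGALS9 (0.908) and the clathrin adaptor AP2M1 (0.899). For SLC11A1 they were PLEKHM2 (0.908), HGS (0.897), ARF3 (0.879), CLCN7 (0.879), a lysosomal chloride transporter, and GNG7 (0.878).

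TFRC was most like TMEM2 (0.958), NRP2 (0.939), ATP13A3 (0.921), SCAMP1 (0.919) and XPR1 (0.919), a phosphate exporter. The genes most like SLC40A1 had lower values: KLF5 (0.742), an epithelial transcription factor, MPZL2 (0.739), EFHB (0.696), CYR61 (0.691) and C1H3orf38 (0.674). Those of FTL were SNAP47 (0.758), CHFR (0.742), AP3D1 (0.708), INTS3 (0.706) and POMT2 (0.703). These values share libraries and cell mixture, and are descriptions.

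Iron and heme genes beyond the members were taken from 8 lists of 65 genes, of which 54 were measured. Between HY and LY, 1 had a positive and 1 a negative difference at an unadjusted p under 0.05, against 1.52% and 3.19% of all genes, and none passed after adjustment. ACO1, the cytosolic aconitase that serves as an iron regulatory protein, had a log2 difference of 0.47 (SE 0.20, edgeR p = 0.0273, adjusted p = 0.999). CP, the ferroxidase ceruloplasmin, had -1.43 (SE 0.61, p = 0.0275, adjusted p = 0.999) at a median of 6 counts. CP was also the single one under 0.05 with milk yield (slope -0.17 per 100 units, SE 0.08, p = 0.0463, adjusted p = 1), where 1.63% of all genes had a negative slope under 0.05. The other iron regulatory protein gene, IREB2, was not analysed here. LTF, the iron-binding lactoferrin of milk, had a log2 difference between HY and LY of 0.27 (SE 0.68) and NCOA4, the receptor that delivers ferritin to lysosomes, one of 0.17 (SE 0.28).

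With lactation period, 15 of the 54 genes had p under 0.05, 5 with positive and 10 with negative slopes, against 10.5% and 9.88% of all genes, and none passed after adjustment (adjusted p from 0.129 to 0.245). The median slope was -0.05 over the 54 genes and 0.03 over all genes. Of the heme degradation and transport list, 3 of 8 had negative slopes under 0.05: the biliverdin reductases BLVRB (-0.61 per 100 days, SE 0.19) and BLVRA (-0.31, SE 0.14), and the heme transporter SLC48A1 (-0.50, SE 0.20). Of the 7 heme synthesis genes, 2 had positive and 2 had negative slopes under 0.05. UROS (-0.33, SE 0.15) and UROD (-0.41, SE 0.13) had negative slopes, and CPOX (0.62, SE 0.26) and FECH (0.37, SE 0.18) had positive ones. ALAS1, ALAD and PPOX were not under 0.05.

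Of 8 genes for mitochondrial iron and iron-sulfur clusters, GLRX5 (-0.59, SE 0.19), ISCU (-0.24, SE 0.10) and ISCA1 (-0.20, SE 0.09) had negative slopes under 0.05. ACO1 had -0.30 (SE 0.11, p = 0.012), while FBXL5, which marks an iron regulatory protein for degradation, had 0.42 (SE 0.17, p = 0.0269). Among the oxidative stress genes, NQO1 had -0.33 (SE 0.15), GCLC 0.71 (SE 0.25) and MAFG 0.62 (SE 0.26).

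With the macrophage score, 10 of the 54 genes rose and 4 fell, where 10.2% and 7.15% of all genes did. CD163, the receptor by which macrophages take up hemoglobin and haptoglobin, ran from 81.1 to 843 CPM and rose by 1.27 per unit (SE 0.18, r = 0.847, adjusted p = 0.000423). Of the 8 genes for heme use and transport, 4 rose and 1, ABCG2, fell. The transporters that rose were FLVCR2 by 0.95 (r = 0.741, adjusted p = 0.00656), SLC48A1 by 0.98 (r = 0.699, adjusted p = 0.0122) and SLC46A1 by 0.85 (r = 0.653, adjusted p = 0.024), and the heme exporter FLVCR1 did not pass (r = 0.0574, adjusted p = 0.928). BLVRA, the enzyme after HMOX1 in heme breakdown, rose by 0.62 (r = 0.654, adjusted p = 0.0237), and ALAS1, the first enzyme of heme synthesis, by 0.87 (r = 0.594, adjusted p = 0.0459). HFE (r = 0.714, adjusted p = 0.0103) was low, at 0 to 3.31 CPM. CYBRD1 (r = 0.539, adjusted p = 0.0794), GCLM (r = 0.548, adjusted p = 0.0739) and PRDX1 (r = 0.532, adjusted p = 0.0843) completed the genes that rose.

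The genes that fell with the macrophage score were NCOA4 (-0.80, SE 0.18, r = -0.707, adjusted p = 0.0111), the mitochondrial iron importer SLC25A37 (-0.57, SE 0.14, r = -0.692, adjusted p = 0.0139), the metal transporter SLC39A8 (-1.13, SE 0.28, r = -0.683, adjusted p = 0.0159) and ABCG2 (-2.50, SE 0.77, r = -0.598, adjusted p = 0.044). LTF had r = -0.46 (adjusted p = 0.158) and ACO1 r = 0.384 (adjusted p = 0.274). In the lists without an adjusted call, the largest values were r = -0.233 for CP and 0.163 for HAMP among the export genes.

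Several of these genes also moved with the milk protein genes. ABCG2, a transporter of the secreting mammary cell, rose with their score (r = 0.971, adjusted p = 8.03e-11), as did LTF (r = 0.820, adjusted p = 0.000174), NCOA4 (r = 0.696, adjusted p = 0.00537) and SLC39A8 (r = 0.632, adjusted p = 0.0159). ALAS1 (r = -0.850, adjusted p = 4.68e-05), FLVCR2 (r = -0.632, adjusted p = 0.0159) and CD163 (r = -0.618, adjusted p = 0.0194) fell. In all, 10 of the 54 genes rose and 10 fell with the milk protein gene score, against 12.5% and 15.3% of all genes.

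**Figure D5:**
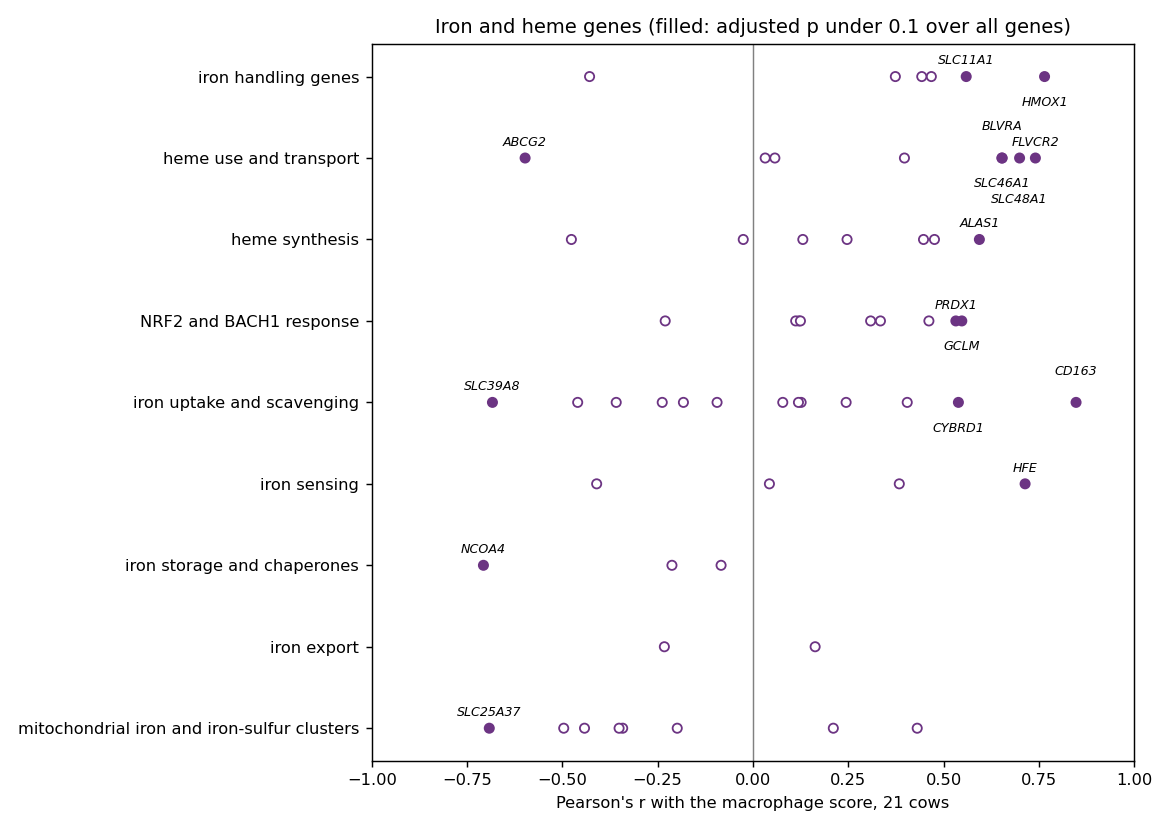
Pearson's r with the macrophage score over 21 cows for the 6 iron handling genes and 54 further iron and heme genes, 1 point per gene and 1 line per list. Filled points have an adjusted p under 0.1 over all genes and carry their names, with CD163 farthest to the right (r = 0.847) and NCOA4 farthest to the left of the filled points (r = -0.707).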

How the data were processed

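Total RNA of milk somatic cells was sequenced for 21 cows. The authors trimmed reads with Trimmomatic, aligned them to bosTau7 with Bowtie2 within TopHat2, used SAMtools and deposited unnormalized HTSeq counts per gene. The tables held 13570 gene rows. HTSeq summary rows (35.5% to 56.5% of reads, 21.6% to 27.5% not unique) and 1 row without a gene name (0.036% to 0.151% of counts on genes) were left out, and 23 rows named like dates could not be assigned. Gene lengths were not used, so levels are not compared between genes. The FTL counts set beside those of FTH1 are the exception and carry no correction for length. Precision at low counts covers counting error only.

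HY and LY were compared on the counts with the quasi-likelihood test of edgeR 4.0.16 (R 4.3.3, TMM), with DESeq2 1.42.0 as alternative. The standard error is the log2 difference divided by the square root of F. For traits and scores, log2(CPM + 0.25) of all 12333 genes was regressed on the variable (per 100 days or yield units, 10 units of other traits, or 1 unit of score), with Benjamini-Hochberg adjustment over all genes and a call at an adjusted p under 0.1. Correlations had 100000 permutations, two-sided, over 30 relations with traits and lactation period, 48 with scores and 15 pairs. In data simulated with 200 changed genes, 97% of those with a log2 change of 2 were recovered for HY against LY, and 71% of those with a slope of 1 for lactation period. The changed genes were drawn from the better expressed genes only. Smaller changes, like those seen for the members, were not simulated, so these rates do not tell how often such changes would be found.

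Named genes were the members, the 5 genes most like each, list genes under 0.05 with group, milk yield or lactation period, the 3 of each list with the largest r with the macrophage score, LTF, NCOA4, ACO1 and IREB2. The other genes called with the macrophage score, and those given for the milk protein genes, FLVCR1 and PRSS2, were named after their values were seen. The members and lists were chosen with earlier results of these data known. Mapping rates, which split the cows into 5 and 16, were taken from the study. A few genes of the lists are not reported here and were left out of the counts over the iron and heme lists.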

Additional observations from a re-analysis of the deposited data

How the results depend on the processing

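No paired analysis was possible because the labels number cows individually and give the groups no shared replicate. No member was called with group, lactation period or a milk trait under any alternative run. For the macrophage score, 2 members passed, against 1 with size factors, 1 in the 16 cows of lower mapping rate, 1 without HY cows 3262 and 3280, 0 with the milk protein gene score as covariate and 0 within HY or LY (fits without 1 cow: 1 to 3). For the milk protein gene score, 4 passed, against 3 in the 16 cows, 3 with the macrophage score as covariate, 1 within HY, 1 within LY and 5 without HY cows 3262 and 3280 (3 to 5 without 1 cow). For the mammary epithelium score, 4 passed, against 1 with the macrophage score as covariate, 1 within HY, 0 within LY and 2 without HY cows 3262 and 3280 (2 to 4). For the neutrophil score, 1 passed, against 2 with the macrophage score as covariate and 0 in the 16 cows, within HY, within LY and without those 2 cows (0 to 1). The alternatives of the milk protein, epithelium and neutrophil scores, and the fits without the 2 cows, were added after seeing the data. The number of all genes called moved too. With lactation period it was 0, against 767 with edgeR slopes, 753 with at least 10 counts in every cow and 1387 with the macrophage score as covariate, and with the macrophage score it was 2141, against 633 with the milk protein gene score, 13 within HY and 65 within LY. Size factors moved the median gene of a cow by -0.105 to 0.085 log2 units against TMM.

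Slopes and differences that turned their sign belonged to members without a call, and the cause was not tested. In the 16 cows these were TFRC between HY and LY (-0.11), SLC40A1 with lactation period (-0.0169), TFRC with milk fat (-0.29) and FTH1 with milk solid (0.0026). Within HY they were HMOX1 (0.14) and SLC40A1 (-0.0193) with lactation period, HMOX1 with milk fat (-0.0523), FTH1 (-0.46) and FTL (-2.84) with milk protein, FTL (-0.78), HMOX1 (-0.13) and SLC40A1 (0.0068) with milk solid, FTH1 (-0.12) and FTL (-0.41) with milk yield, and TFRC with the neutrophil score (0.34). Within LY they were FTL with lactation period (0.64), FTH1 with the epithelium score (0.0118), TFRC with milk fat (-1.10), FTH1 (-0.20), SLC40A1 (0.0082) and TFRC (-0.067) with milk protein, HMOX1 (-0.0409) and SLC11A1 (0.07) with milk solid, and FTH1 (-0.0871) and HMOX1 (-0.0157) with milk yield. With group as covariate they were FTH1 with milk protein (-0.29), and FTL (-0.0097) and HMOX1 (-0.0855) with milk solid. A linear model gave SLC11A1 -0.0262 between HY and LY. The macrophage score as covariate gave SLC40A1 -0.0149 with lactation period and FTH1 0.0118 with the epithelium score. The milk protein gene score as covariate turned SLC11A1 with lactation period (-0.0259), milk fat (-0.11), milk protein (-0.11) and milk yield (-0.0317), HMOX1 with milk fat (-0.0268) and milk solid (-0.0225), and TFRC with milk fat (-0.0482). Parity and group as covariates gave SLC40A1 -0.0198 with lactation period. Without HY cows 3262 and 3280, SLC11A1 was -0.0141 with lactation period and 0.0243 with milk solid, and FTL was 0.19 with the neutrophil score.

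When single cows were left out, the sign turned within these ranges: TFRC (-0.16 to 0.35) and SLC11A1 (-0.0819 to 0.16) between HY and LY, SLC11A1 with milk yield (-0.0051 to 0.0465), SLC40A1 with lactation period (-0.0761 to 0.10), TFRC (-0.30 to 0.31) and SLC11A1 (-0.0245 to 0.16) with milk fat, SLC11A1 with milk protein (-0.0058 to 0.17), FTH1 (-0.0464 to 0.0225), HMOX1 (-0.0499 to 0.0496) and SLC11A1 (-0.0484 to 0.0157) with milk solid, and TFRC with the neutrophil score (-0.58 to 0.0119).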
